A study of Homo sapiens with 15 samples.

Results

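The 9 genes described here encode regulators that keep the epithelial state, and they were named by symbol among the 19612 genes of the table. ESRP1 and ESRP2 are splicing factors. GRHL1, GRHL2, OVOL1, OVOL2, EHF, ELF3, and KLF5 are transcription factors. All 9 symbols were found, and the rule that names them uses no measured value. The H1975 line, from a human lung adenocarcinoma, has an EGFR gene that carries T790M and L858R. H1975–OR is a subline with the same EGFR status, selected by long culture in osimertinib, an inhibitor of mutant EGFR, and grown with 500 nM of it. Whether the subline is 1 clone is not given in the sources used here. There were 5 conditions with 3 libraries each, named by a number for the condition and a letter for the replicate. Samples 1a, 1b, and 1c were H1975 with vehicle, and the rest were H1975–OR. The number 2 stands for vehicle, 3 for 100 nM 1,25(OH)2D3, 4 for 500 nM osimertinib, and 5 for the combination of these doses. Treatment lasted 96 h, and 1,25(OH)2D3 is the active hormone made from vitamin D3. The library labelled 3a was left out of the tests unless said otherwise, a choice taken over from the study, and for the regulators its values are printed beside the others. Samples numbered 1, 2, and 3 came from separate passages, so the p-values measure the spread between cultures of these lines. The labels name no osimertinib among the treatments of Samples numbered 2 and 3. By the study's methods, a treatment medium took the place of the growth medium and held vehicle, a single agent, or the combination. By that description, Samples numbered 2 and 3 had no osimertinib added during the 96 h.

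Epithelial cells hold together through adherens and tight junctions, and a small network of regulators maintains the genes for these structures. ESRP1 and ESRP2 bind pre-mRNA and set the epithelial choice of exons in genes such as FGFR2 and CD44. Grainyhead-like factors (GRHL) and the OVO-like zinc-finger factors (OVOL) maintain junction genes and repress ZEB1, while ZEB1 and ZEB2 in turn repress ESRP and OVOL genes in epithelial-mesenchymal transition (EMT). EHF and ELF3 are ETS factors restricted to epithelia, and KLF5 is a Krüppel-like factor of proliferating epithelial cells.

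On GRCh38, the gene models of GENCODE release 44 place ESRP2 at chr16:68229033-68238102 on the minus strand, GRHL1 at chr2:9951693-10002277, OVOL1 at chr11:65787063-65797214, OVOL2 at chr20:17956979-18059188 on the minus strand, EHF at chr11:34621093-34663288, ELF3 at chr1:202007945-202017183, and KLF5 at chr13:73054976-73077541. All 9 are protein-coding, with between 4 exons (OVOL1, OVOL2, KLF5) and 16 exons (ESRP1, GRHL1, GRHL2) in the canonical transcript. ESRP2 overlaps NFATC3 on the opposite strand, OVOL2 overlaps MGME1 on the opposite strand and SNX5 on its own, and ELF3 and OVOL1 overlap antisense transcripts. The library kit keeps strand, but the strand setting used for counting is not given in the sources used here, so reads in such overlaps may be shared.

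RefSeq start-site windows on GRCh38.p14 were matched for ELF3, GRHL1, EHF, and KLF5, and those of ELF3 and KLF5 are shown because both transcripts were still counted in every H1975–OR library. The ELF3 stretch is chr1:202010455-202010484 on the plus strand, within an exon of another ELF3 transcript, and its capitals mark the E-box CACCTG, 120 bases before the start site, a letter string that ZEB and SNAI proteins can bind. KLF5 had 2 windows. The one before the gene start given above, chr13:73054726-73054975, has a GC content of 40.8% and held none of the strings searched. The KLF5 stretch shown is the other, the 250 bases before the second start site, chr13:73058755-73059004 on the plus strand and outside annotated exons, with a GC content of 70.8%. It was chosen because it holds a match, and its capitals mark the GC-box letters CCGCCC at 209 and 48 bases before the start, a string that Krüppel-like and SP factors can bind.
ELF3: gaatatgcaaatCACCTGgggccaggagcc
KLF5: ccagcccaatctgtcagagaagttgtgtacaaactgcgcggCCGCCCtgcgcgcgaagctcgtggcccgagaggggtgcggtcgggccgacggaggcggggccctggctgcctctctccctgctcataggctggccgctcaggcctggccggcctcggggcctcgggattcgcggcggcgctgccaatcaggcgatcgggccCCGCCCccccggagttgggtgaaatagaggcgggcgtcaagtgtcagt
Searched on both strands over 35116 windows of 250 bases, CAGGTG or CACCTG occurred in 17.5% and GGGCGG or CCGCCC in 42.6%, and neither KLF5 window held CAGGTG or CACCTG. Also searched were AACNNGTT (N for any base), AGGTCA or TGACCT, and CCGGAA or TTCCGG, which occurred in 3.0%, 12.1%, and 14.5%. None of these further strings occurred in the ELF3 window or in either KLF5 window. A letter match describes the sequence and does not show that a factor binds there.

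Each of the 15 libraries held between 4378030 and 6140120 estimated counts (median 4974785), so that 3 counts in a library stand for between 0.477 and 0.707 CPM, in which counts are scaled to a common library size with TMM factors. This floor of 3 counts covers counting error only. Summed lung epithelial markers lay between 4604 and 5959 CPM in H1975 and between 3601 and 3939 CPM in vehicle-treated H1975–OR, with every one of the 11 above 3 counts in some library of both groups. The largest part came from KRT18 (means of 1897 and 2441 CPM), the 1 marker of 8 tested that was called higher in H1975–OR. Another 4 were called lower, among them CDH1 (243 to 6.93 CPM) and EPCAM (151 to 11.6 CPM), and 3 were not called. Mesenchymal markers summed to between 3347 and 3844 CPM in H1975 and between 3779 and 5420 CPM in vehicle-treated H1975–OR, most of it from VIM (means of 2610 and 3671 CPM). The list was split, with 4 of the 8 tested called higher in H1975–OR and 3 lower, among them FN1, which fell from 711 to 56.1 CPM (log2 fold change −3.65, SE 0.25, edgeR adjusted p = 0.00015). CDH2 and THY1 stayed at 3 counts or fewer in both. Blood and endothelial markers summed to at most 46.2 CPM in any library, with CD3E and HBB at 3 counts or fewer in all 15. A lower level may be less RNA per cell or fewer cells with the RNA, which bulk libraries cannot tell apart.

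To ask which regulators the osimertinib-resistant subline had kept, vehicle-treated H1975–OR was compared with H1975. ESRP1, GRHL2, OVOL1, EHF, and ELF3 were lower in H1975–OR, and no regulator was higher. ESRP1 and GRHL2 fell from 68.3 and 45.7 CPM to at most 2 counts in a library, OVOL1 and EHF to at most 3 counts, and ELF3 from 43.7 to 13.7 CPM. With edgeR's quasi-likelihood test, 5 of the 7 regulators that passed the filter on low counts were called lower, against 10.3% of the 12513 genes tested. ESRP1, GRHL2, OVOL1, and EHF passed that filter only through the H1975 libraries, so their count does not describe all 9.

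ESRP1, a chromosome 8 gene and the more abundant of the paired splicing factors, measured 36.9, 72.6, and 95.3 CPM in Samples 1a, 1b, and 1c. Over the 12 H1975–OR libraries it received 3 counts in all, 1 each in Samples 2a, 3a, and 4b, and the other 9 libraries were at 0. The groups stood far apart, and no treatment brought a library above 0.205 CPM. Against the floor, vehicle-treated H1975–OR was at least 113-fold lower (log2 fold change −9.53, SE 0.71, edgeR adjusted p = 0.00034). This bound, like those given below, divides the H1975 mean by the mean floor of the vehicle-treated H1975–OR libraries, 0.603 CPM. Such a bound concerns the mean and does not apply to each H1975 library. The call held in all 13 fits tried.

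GRHL2, also on chromosome 8 and the grainyhead-like factor that maintains junction genes, measured 21.8, 51.3, and 63.8 CPM in H1975. It received 2 counts in Sample 2c, 2 counts in Sample 5a, and 0 in the other 10 H1975–OR libraries. Its level was at least 75.7-fold lower in vehicle-treated H1975–OR (log2 fold change −8.16, SE 0.80, edgeR adjusted p = 0.00094), and it too was called in all 13 fits. GRHL1, its relative, was near the floor throughout, with 12 counts in Sample 1c and 0 in Samples 1a and 1b. In H1975–OR, Sample 2a held 6 counts and no other library more than 2, so the groups overlapped and it was not tested.

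OVOL1, a repressor of mesenchymal genes, measured 5.36, 18.02, and 17.7 CPM in H1975. Vehicle-treated H1975–OR libraries had 0, 0.620, and 0.193 CPM, and the highest of all H1975–OR libraries was Sample 4a with 7 counts or 1.33 CPM. The level was at least 22.7-fold lower without treatment (log2 fold change −5.53, SE 0.87, edgeR adjusted p = 0.0041), called in all 13 fits. OVOL2, the relative linked most closely to ZEB1 repression, had 9, 6, and 3 counts in H1975 and 0 counts in each of the 12 H1975–OR libraries. By the H1975 mean that is at least 1.8-fold lower, but Sample 1c was itself at the floor of 3 counts. With so few counts OVOL2 did not pass the filter and was not tested. MGME1, which overlaps OVOL2 on the opposite strand, was also lower in H1975–OR (log2 fold change −1.32, SE 0.20, edgeR adjusted p = 0.0033), with 14.04 to 20.4 CPM with vehicle against 39.4 to 48.4 CPM in H1975, and the part of shared reads was not tested.

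EHF measured 1.21, 2.91, and 7.52 CPM in H1975, which is 7, 16, and 37 counts, and at most 3 counts in any H1975–OR library. The libraries of the lines did not overlap, and the level was at least 6.43-fold lower (log2 fold change −4.10, SE 1.09, edgeR adjusted p = 0.036). This call was weak. It held in 5 of the 10 fits in which EHF was tested, with adjusted p between 0.016 and 0.099, and leaving out Sample 2a, 2b, or 2c each ended it.

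ELF3 measured 24.4, 37.7, and 69.1 CPM in H1975 and 13.1, 16.3, and 11.6 CPM in vehicle-treated H1975–OR. All 3 H1975–OR libraries lay below all 3 of H1975, and the means were 43.7 ± 23.0 and 13.7 ± 2.43 CPM (SD, n = 3 each). The log2 fold change was −1.66 (SE 0.39, edgeR adjusted p = 0.020). Of 13 fits, 11 gave a call, and the adjusted p was 0.053 without Sample 1c and 0.066 without Sample 2c.

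KLF5 measured 18.2, 24.03, and 29.5 CPM in H1975 and 9.81, 9.71, and 16.4 CPM in vehicle-treated H1975–OR. These groups did not overlap either, but the difference missed the threshold (log2 fold change −0.98, SE 0.30, edgeR adjusted p = 0.053). It was past the threshold in 4 of 13 fits, with adjusted p between 0.028 and 0.16. In all, 7 of the 9 regulators had every vehicle-treated H1975–OR library below every H1975 library, 6 of them among the 7 tested, against 20.3% of all genes tested. ESRP1, GRHL2, OVOL1, and EHF, which are among these 6, passed the filter only through H1975. A gene that passes in this way is likely to lie lower in H1975–OR, so the count and the share are not alike.

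**Figure D1:**
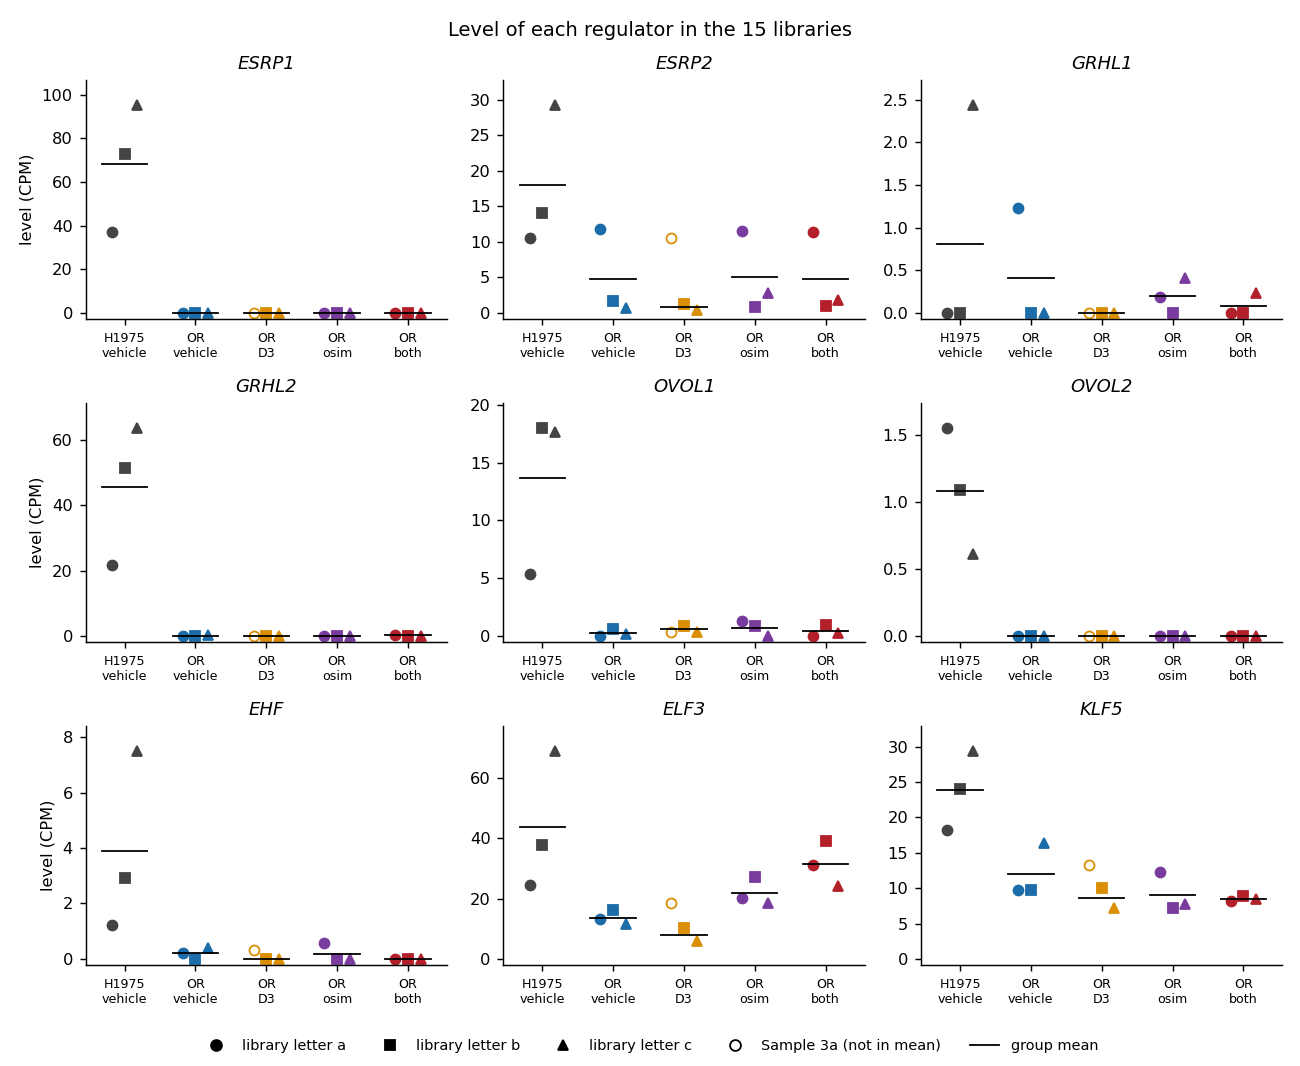
Level of each of the 9 regulators in CPM (vertical axes, linear, each gene with its own scale from 0) in the 15 libraries by condition, where symbols mark the library letter, lines mark group means, and the open symbol is Sample 3a, which no mean includes. ESRP1, GRHL2, OVOL1, OVOL2, and EHF drop to the axis in all H1975–OR conditions, ELF3 and KLF5 keep a measurable level, and ESRP2 splits by letter.

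Within H1975 the levels also varied. Sample 1a had the lowest value for 7 of the 9 regulators and Sample 1c the highest for 7 of the 9. Per length of the longest transcript, the order of mean levels in H1975 was ESRP1 (18.1 CPM per kb), ELF3 (8.76), GRHL2 (8.73), KLF5 (7.13), ESRP2 (5.23), OVOL1 (4.58), EHF (0.719), OVOL2 (0.686), and GRHL1 (0.228). With the median transcript length in its place, GRHL2 led with 21.3 CPM per kb, before ESRP1 with 19.7 and ELF3 with 16.99. The levels of ELF3, GRHL2, and KLF5, neighbours in the first order, overlapped between libraries. In vehicle-treated H1975–OR the order was KLF5 (3.57 CPM per kb), ELF3 (2.73), and ESRP2 (1.39), whose libraries ranged from 0.770 to 11.9 CPM without scaling for length. The other 6 were at 0.115 CPM per kb or below.

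ESRP2, the paralog of ESRP1, differed from ESRP1 in that its level in H1975–OR depended on the library letter. It measured 10.6, 14.02, and 29.3 CPM in Samples 1a, 1b, and 1c. In vehicle-treated H1975–OR it measured 11.9, 1.65, and 0.770 CPM in Samples 2a, 2b, and 2c. The letter a library thus kept a level within the range of H1975, while the others were near the floor. The comparison of the lines was not called (log2 fold change −1.89, SE 0.89, edgeR adjusted p = 0.17), and without Sample 2a it was (log2 fold change −3.87, SE 0.72, edgeR adjusted p = 0.0082).

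The same split was present under each treatment. ESRP2 measured 10.48, 1.29, and 0.371 CPM in Samples 3a, 3b, and 3c with 1,25(OH)2D3, 11.6, 0.818, and 2.86 CPM in Samples 4a, 4b, and 4c with osimertinib, and 11.4, 0.939, and 1.89 CPM in Samples 5a, 5b, and 5c with both agents. In whole counts, the 4 letter a libraries of H1975–OR held between 57 and 66 counts and the 8 others between 2 and 14. In a comparison chosen after these values were seen, letter a was set against letters b and c in the 11 H1975–OR libraries other than 3a, with treatment in the model. ESRP2 was higher with letter a (log2 fold change 2.99, SE 0.50, 95% interval 1.85 to 4.12, edgeR adjusted p = 0.0071), as were 7.45% of the 12503 genes tested (14.4% in either direction), and 6.85% had every letter a library above all others. The call was lost without the osimertinib libraries (adjusted p = 0.055) and without those given both agents (adjusted p = 0.062). Letters b and c did not separate (log2 fold change −0.15, SE 0.61, 95% interval −1.55 to 1.26, edgeR adjusted p = 0.95).

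The libraries of a condition came from separate passages for Samples numbered 1, 2, and 3. Whether libraries of 1 letter share a passage, a culture day, or a library preparation across conditions is not given in the sources used here, and these cannot be told apart. In H1975 the letter order was the reverse, with Sample 1a lowest. Transcripts encoded by the mitochondrial genome made up 1.04% of counts in Samples 4a and 5a and 1.54% in Sample 3a, and 1.05% in Sample 1a, against at most 0.774% in the letter b and c libraries of H1975–OR. Sample 2a was at 0.746%, with an ESRP2 level like that of the others of its letter. The part of RNA quality in the ESRP2 split was not tested. NFATC3, which overlaps ESRP2 on the opposite strand, was not called by letter (log2 fold change 0.01, SE 0.13, edgeR adjusted p = 0.98).

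**Figure D2:**
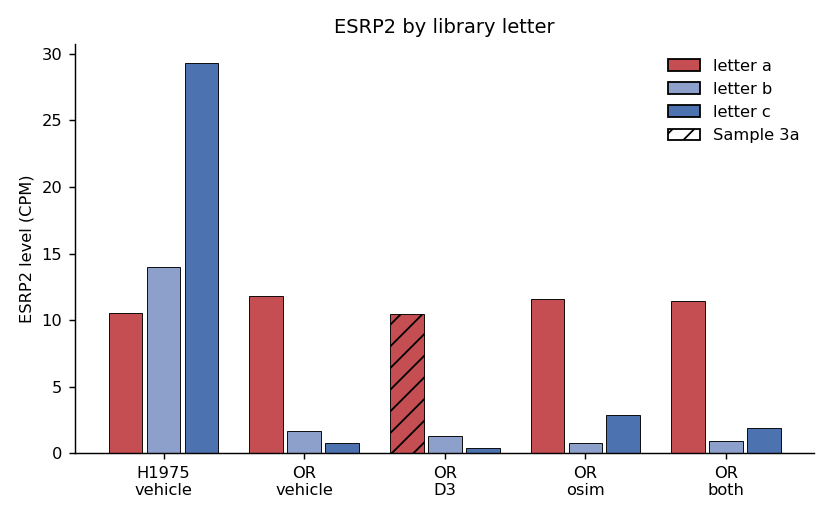
ESRP2 level in CPM (vertical axis, linear from 0) in each of the 15 libraries, as 1 bar per library grouped by condition and colored by library letter, with Sample 3a hatched. The 4 letter a libraries of H1975–OR sit between 10.48 and 11.9 CPM and the 8 others between 0.371 and 2.86 CPM, whereas in H1975 the letter a library is the lowest.

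ELF3 and KLF5, tested in the same way, showed no such difference of letter a from the others (log2 fold changes −0.05, SE 0.13, 95% interval −0.36 to 0.25, and 0.11, SE 0.29, 95% interval −0.56 to 0.78). Between letters b and c, ELF3 was higher with letter b but not called (log2 fold change 0.64, SE 0.14, 95% interval 0.32 to 0.95, edgeR adjusted p = 0.25). For KLF5 that log2 fold change was −0.10 (SE 0.30). Some genes linked to the regulators did differ by letter. Of 14 epithelial genes tested that GRHL2 or OVOL factors are linked to, 9 were not called, against 14.4% of all genes called in either direction. CDH1 (E-cadherin), SPINT2, and MAL2 were among the 4 higher with letter a, and 1, CDH3 (P-cadherin), was lower. MAL2, a transport protein of polarized cells, measured 6.74, 0.207, and 0.963 CPM in Samples 2a, 2b, and 2c, and its log2 fold change by letter was 3.44 (SE 0.62, edgeR adjusted p = 0.0098). TFCP2L1, a factor of the grainyhead superfamily, measured 43.3, 8.88, and 7.89 CPM in the same libraries (log2 fold change by letter 2.58, SE 0.25, edgeR adjusted p = 0.00092). As for ESRP2, Sample 2a stood apart from Samples 2b and 2c for both genes. Of 10 other splicing regulators tested by letter, 2, MBNL3 and SRSF1, were also higher with letter a, and 8 were not called. MBNL3 measured 5.11, 0.826, and 0.963 CPM in Samples 2a, 2b, and 2c.

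Most of the epithelial genes linked to GRHL2 or OVOL factors were also lower in H1975–OR. Of 20 such genes, 19 were tested, 12 were lower in H1975–OR, against 10.3% of all genes tested, none was higher, and 7 were not called. With the letter block 9 of the 12 were still called, without RAB25, SPINT2, and MARVELD3. The median log2 fold change of the 19 was −3.43 (−3.24 with 2 genes set to their bounds), against 0.01 over all genes tested, and 5 of the 19 were tested only because of their level in H1975. RAB25, a trafficking GTPase of epithelia, had between 1.903 and 5.89 CPM in H1975 and no count in H1975–OR. CLDN7, a claudin of tight junctions, averaged 33.0 CPM in H1975 and was at least 54.8-fold lower. SPINT1, which inhibits the protease ST14, averaged 44.2 CPM against 0.744 CPM (log2 fold change −5.84, SE 0.79, edgeR adjusted p = 0.0021). MAL2 averaged 205 CPM against 2.64 CPM (log2 fold change −6.26, SE 0.87, edgeR adjusted p = 0.0023). The list is background knowledge written with earlier results of these data known, and the counts describe it only.

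Among the EMT transcription factors the direction was mixed. ZEB1 averaged 3.72 ± 3.83 CPM in H1975 and 30.7 ± 20.9 CPM in vehicle-treated H1975–OR (SD, n = 3 each, log2 fold change 3.02, SE 0.81, edgeR adjusted p = 0.032). ZEB2 rose from 6.60 ± 1.32 to 32.4 ± 3.05 CPM (log2 fold change 2.30, SE 0.21, edgeR adjusted p = 0.00048). SNAI1 and SNAI2 fell, from 20.4 to 11.7 CPM and from 20.6 to 9.15 CPM (log2 fold changes −0.79 and −1.15, edgeR adjusted p = 0.0497 and 0.015). TWIST1 and TWIST2 had no count in any library. With library letter as a block, 2 of the 4 tested were called, ZEB2 and SNAI2, in a fit that called 17.2% of all genes.

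Relatives of the regulators and other splicing factors moved in both directions. Of 13 family relatives, 10 were tested, ELF2 was higher (log2 fold change 0.58, SE 0.16) and GRHL3 lower (from 3.15 CPM to at most 2 counts, at least 5.23-fold), and neither was called with the letter block. Of 12 other splicing regulators, 10 were tested. QKI, which favors mesenchymal exons, rose from 41.4 to 83.3 CPM (log2 fold change 1.02, SE 0.20, edgeR adjusted p = 0.0093), and RBFOX2 rose from 181 to 239 CPM (log2 fold change 0.42, SE 0.09, edgeR adjusted p = 0.015). MBNL3 and SRSF1 fell (log2 fold changes −2.54 and −0.65). None of the 12 genes known to carry ESRP-regulated exons was called with edgeR, 0 against 20.1% of all genes, and 1 was called with DESeq2, against 24.3%. At an unadjusted p under 0.05, 5 of them passed, among them FGFR2 (log2 fold change 2.03, SE 0.80, edgeR adjusted p = 0.11) and MAGI1 (log2 fold change −0.76, SE 0.25, edgeR adjusted p = 0.067). These are whole-gene levels and say nothing of exon choice, which gene counts cannot show. Of 16 other epithelial transcription factors, 12 were tested, FOXA2 (log2 fold change −5.30, SE 1.05) was among those lower, and TFAP2A (log2 fold change 0.78, SE 0.23) was higher.

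**Figure D3:**
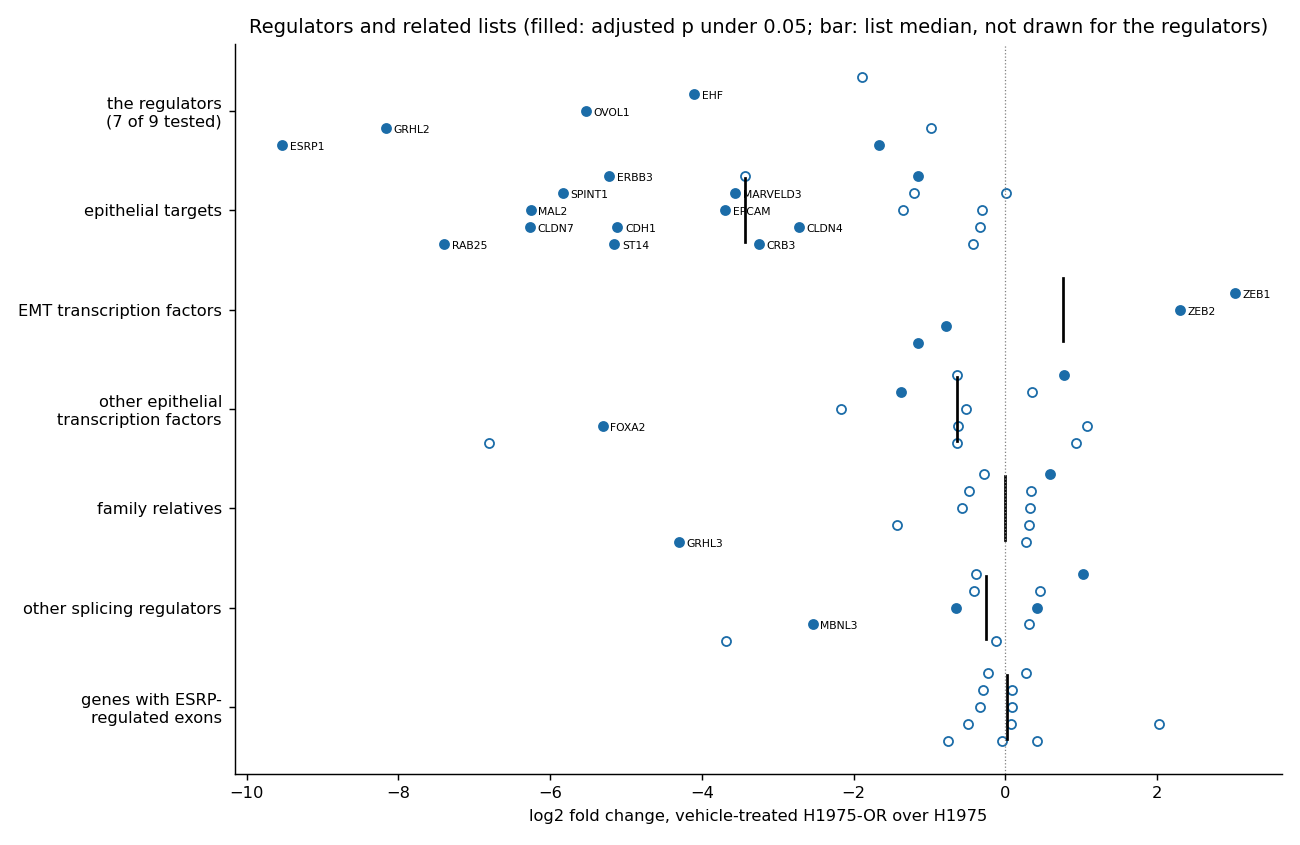
Log2 fold change of each tested gene in vehicle-treated H1975–OR over H1975 (horizontal axis) for the regulators and 6 related lists, each point 1 gene, filled at an edgeR adjusted p under 0.05. Bars mark the medians of the 6 lists, and none is drawn for the regulators. The epithelial targets spread to −7.40 with a median of −3.43, ZEB1 and ZEB2 lie to the right at 3.02 and 2.30, and the genes with ESRP-regulated exons have a median of 0.02 and no filled point, with FGFR2 farthest to the right at 2.03.

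The treatments were compared within H1975–OR to ask whether 1,25(OH)2D3, osimertinib, or their combination moved any regulator. Without the letter block, none was called in any of the 5 tests of treatment. With it, 1 was called in 1 test, ELF3 for both agents over vehicle (log2 fold change 1.18, edgeR adjusted p = 0.011). With 1,25(OH)2D3 and no block, 0 of 7 regulators were called, against 0.152% of all genes. ESRP1, GRHL2, OVOL1, and EHF, among these 7, passed the filter only through H1975. They held at most 4 counts in any library of the groups compared and could hardly be called. The test therefore describes ESRP2, ELF3, and KLF5 only. With osimertinib, both agents against osimertinib, both agents against vehicle, and the interaction of the agents, also without the block, 0 of the 3 tested were called, against 0.048%, 0.096%, 0.496%, and 0.0% of 12503 genes. At an unadjusted p under 0.05, ELF3 passed for osimertinib, for both agents against vehicle, and for the interaction. DESeq2 called 0, 0, 0, 1, and 0 of the regulators in these tests.

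ESRP1, GRHL2, OVOL1, OVOL2, EHF, and GRHL1 stayed at or near the floor under each treatment. Across the 9 treated libraries the highest were 7 counts for OVOL1 (Sample 4a), 3 for EHF (Sample 4a), 2 for GRHL1 (Sample 4c), 2 for GRHL2 (Sample 5a), 1 for ESRP1, and 0 for OVOL2. The lowest H1975 libraries held 213, 126, and 31 counts for ESRP1, GRHL2, and OVOL1, so a return to part of that level would have stood above these counts, while a level under the floor of 3 counts in a library was not detectable. CDH1, a target linked to several of the regulators, did rise with 1,25(OH)2D3, from 6.93 ± 2.20 CPM (n = 3) to 129.6 ± 30.9 CPM (SD, n = 2, and 105.8 CPM in Sample 3a), with a log2 fold change of 4.22 (SE 0.51, edgeR adjusted p = 0.024), but it was not called with the letter block in that fit. Given with osimertinib it was also higher than with osimertinib alone (log2 fold change 3.42, SE 0.37, edgeR adjusted p = 0.0093), while ESRP1, GRHL2, and OVOL2 held at most 2 counts in those libraries.

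Among the regulators, ELF3 had the widest range of group means within H1975–OR in CPM, from 7.92 to 31.4 CPM. Relative to its level ESRP2 ranged wider, from 0.829 to 5.09 CPM. The lowest mean of each gene was that of Samples 3b and 3c, a group without a letter a library. With Sample 3a kept in, the means of ESRP2 lay between 4.05 and 5.09 CPM and those of ELF3 between 11.5 and 31.4 CPM. The range of ESRP2 was then the narrower relative to its level. ELF3 measured 13.1, 16.3, and 11.6 CPM with vehicle, 20.3, 27.2, and 18.4 CPM with osimertinib, and 31.0, 39.2, and 24.03 CPM with both agents. The osimertinib libraries all lay above the vehicle libraries, as did those given both agents, while the osimertinib and combined groups overlapped. The corresponding shares of genes without overlap on the higher side were 5.96% for osimertinib and 8.08% for both agents. The log2 fold changes were 0.69 for osimertinib (SE 0.28, edgeR adjusted p = 0.61), 0.51 for both agents over osimertinib (SE 0.28, edgeR adjusted p = 1.0), and 1.20 for both agents over vehicle (SE 0.28, edgeR adjusted p = 0.13). With the letter as a replicate block, both agents over vehicle gave 1.18 (SE 0.16, edgeR adjusted p = 0.011), where 2.26% of genes were called higher against 0.384% without the block, and DESeq2, which called 1.84% of genes higher, gave an adjusted p of 0.0084. Over the 13 fits the adjusted p lay between 0.0084 and 0.41, and 2 passed.

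With 1,25(OH)2D3 alone ELF3 measured 18.6, 10.1, and 5.75 CPM in Samples 3a, 3b, and 3c. Samples 3b and 3c were below every vehicle library and Sample 3a was above all of them. Without Sample 3a, 12.3% of genes lay below the vehicle libraries without overlap. Without Sample 3a the log2 fold change was −0.79 (SE 0.46, edgeR adjusted p = 0.79), and with it −0.24 (SE 0.47). The interaction, which is the effect of 1,25(OH)2D3 in the presence of osimertinib minus that in its absence, was 1.29 for ELF3 (SE 0.43, 95% interval 0.33 to 2.25, edgeR adjusted p = 1.0), and it was 0.75 (SE 0.53) with Sample 3a kept in.

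KLF5 measured 9.81, 9.71, and 16.4 CPM with vehicle, 13.3, 10.1, and 7.24 CPM in Samples 3a, 3b, and 3c, 12.4, 7.16, and 7.76 CPM with osimertinib, and 8.21, 8.92, and 8.48 CPM with both agents. The libraries given both agents all lay just below the vehicle libraries, as did those of 8.22% of genes, with a log2 fold change of −0.49 (SE 0.33, 95% interval −1.22 to 0.23, edgeR adjusted p = 0.60). The log2 fold changes of KLF5 for each agent alone and for both agents over osimertinib lay between −0.47 and −0.10, the interaction was 0.36 (SE 0.49), and none was called in any fit.

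ESRP2 effects carried wide intervals because of the letter split. The log2 fold change for osimertinib was 0.11 (95% interval −2.58 to 2.80) and for both agents over vehicle 0.01 (−2.67 to 2.69). With 1,25(OH)2D3 it was −2.51 (SE 1.23, edgeR adjusted p = 0.72), a comparison in which the treated group held no letter a library. With Sample 3a kept in, the value was −0.19 (SE 1.15), and in the 11 H1975–OR libraries with the letter block it was −0.67 (SE 0.81).

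**Figure D4:**
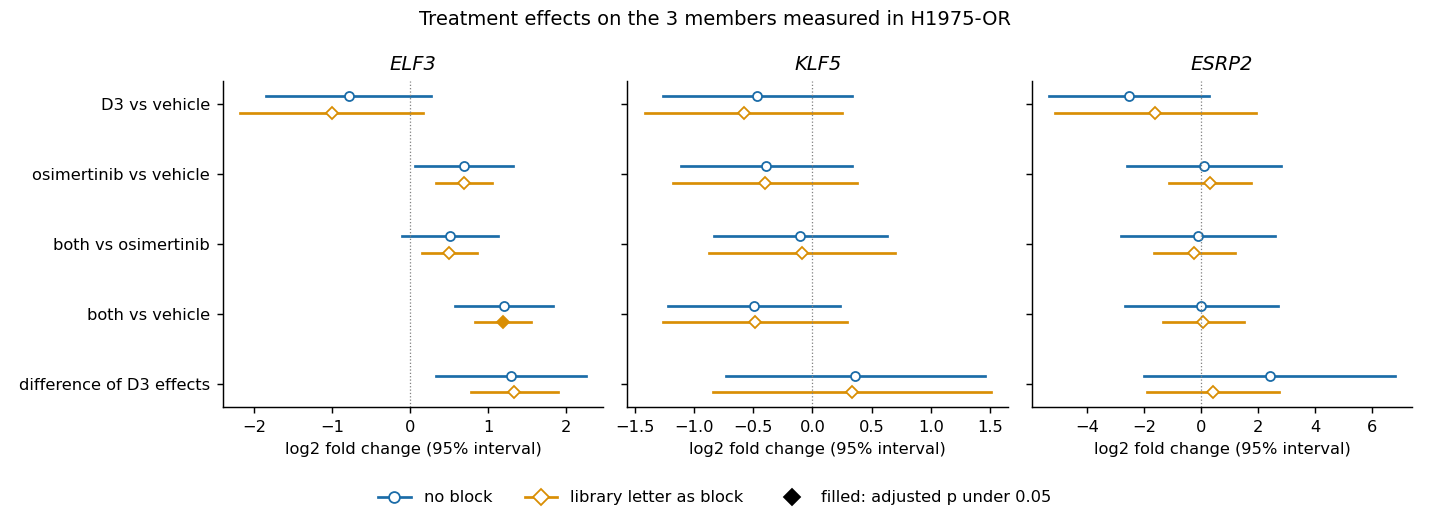
Log2 fold change with its 95% interval (horizontal axes, a separate range for each gene) for ELF3, KLF5, and ESRP2 in the 5 tests of treatment in H1975–OR, without a block (circles) and with library letter as a block (diamonds), filled at an edgeR adjusted p under 0.05. The 1 filled point is ELF3 with both agents over vehicle under the block, at 1.18, and the ESRP2 intervals are the widest.

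Besides CDH1, the related genes ETS2 and PATJ were higher with both agents than with vehicle. ETS2, an ETS factor, averaged 66.1 ± 9.57 CPM with vehicle and 122 ± 17.8 CPM with both agents (SD, n = 3 each, log2 fold change 0.88, SE 0.15, edgeR adjusted p = 0.040). PATJ, a scaffold protein of tight junctions, averaged 44.3 ± 4.77 and 86.5 ± 15.4 CPM (log2 fold change 0.96, SE 0.16, edgeR adjusted p = 0.040). With the letter block, the epithelial targets called higher included CDH1, CLDN4, and PATJ. Of 9 mesenchymal markers tested, COL1A1 and FN1 were higher with both agents than with vehicle (log2 fold changes 3.44 and 1.46), and 7 were not called. With 1,25(OH)2D3 alone COL1A1 was also called higher (log2 fold change 3.72, SE 0.33, edgeR adjusted p = 0.0074), though not with the letter block. FN1 was not called there (log2 fold change 1.37, SE 0.26, edgeR adjusted p = 0.12). With the letter block S100A4 was lower with both agents than with vehicle (log2 fold change −0.97, SE 0.14, edgeR adjusted p = 0.012). Between the lines these genes had moved the opposite way, with COL1A1 and FN1 lower in vehicle-treated H1975–OR than in H1975 (log2 fold changes −1.12 and −3.65) and S100A4 higher (log2 fold change 1.39).

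Profiles over the 14 libraries other than 3a were also compared between genes, as the root mean square difference of log2(CPM + 2) values centred on each gene's mean, among genes that averaged at least 10 CPM. This is a description, and most of it reflects the step between the lines. Nearest to GRHL2 were ST14 (0.213), ESRP1 (0.275), and LAD1 (0.320), and nearest to ESRP1 were LAD1 (0.240), ST14 (0.396), and TM4SF18 (0.503). ST14, a membrane protease of epithelia, measured 36.3, 83.9, and 106 CPM in H1975 and at most 3.00 CPM in H1975–OR. LAD1, an anchoring filament protein of basement membranes, measured 38.9, 74.5, and 98.4 CPM in H1975 and at most 1.33 CPM in H1975–OR.

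Nearest to ESRP2 were LIF (0.342), CLIP4 (0.352), and HDAC9 (0.43), which split by letter in the same libraries. LIF, a cytokine of the interleukin-6 family, measured 38.6, 9.91, and 9.05 CPM in Samples 2a, 2b, and 2c. CLIP4 measured 40.9, 8.26, and 6.55 CPM there, and HDAC9, a histone deacetylase, measured 57.8, 19.4, and 13.5 CPM. Nearest to KLF5 were NUP35 (0.180), MTFR1 (0.194), and PGP (0.202), and nearest to ELF3 were PIP4K2C (0.425), CENPL (0.427), and ATXN7 (0.438). CENPL, a kinetochore protein, shared with ELF3 a lower level with vehicle (between 10.1 and 13.3 CPM) than with both agents (between 16.2 and 19.6 CPM). For OVOL1 (H1F0, PLIN2, and HIST2H2AA3) and EHF (C12orf66, ZNF107, and MTFR1) the added 2 CPM compress a low profile, and the nearest genes are common transcripts with a smaller relative step.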

How the data were processed

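The table held estimated counts, which the authors deposited per gene after assigning stranded total RNA reads to hg38 transcripts with Kallisto and summing them with tximport. The submitters' processing notes name CASAVA 1.8.2, STAR 2.5.2b, kallisto 0.43.0, and GRCh38. The transcript annotation is not given in the sources used here. Counts were rounded, scaled by TMM, filtered with filterByExpr (minimum count 10, minimum total 15), and tested with edgeR 4.0.16 in R 4.3.3 (quasi-likelihood test, 2-sided, Benjamini-Hochberg adjustment over all genes tested, threshold 0.05). One fit held 8 libraries and 12513 genes for H1975–OR against H1975 and 1,25(OH)2D3 against vehicle. A second fit, with 12503 genes, held 11 libraries, those of H1975–OR without Sample 3a. The steps were tested on simulated data with known changes.

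The regulators and all gene lists were chosen with earlier results of these data known. Named genes were the 9 regulators, the 6 EMT factors, up to 4 genes of each list with the greatest called difference between the lines, list genes called in a treatment test, and 3 nearest profiles per regulator. Genes outside this rule, named for the letter comparison or as overlapping genes, were chosen after their values were seen.

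Within H1975–OR (vehicle, osimertinib, and both agents), deviations from group means correlated between libraries of the same letter at between 0.12 and 0.46 in each of 9 pairs across 12819 genes, against between −0.32 and 0.10 for different letters. The letters were thus taken to pair these libraries. The main fits nonetheless held no letter block, because the study states none, and so they ignore this pairing. Fits with the letter as a block are given as alternatives. Between H1975 and H1975–OR, same-letter correlations lay between −0.12 and 0.081, and the letters were not taken to pair the lines. In the fit that holds H1975, the letter block sets 1 letter effect for both lines, so it is given there only as an alternative. Levels of all 15 libraries are on 1 TMM scale. Results for some list genes are not reported here.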

Additional observations from a re-analysis of the deposited data

Results flagged for a closer look

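The ESRP2 level by letter moved in opposite directions in the lines. In log2(CPM + 2), the letter a libraries minus those of letters b and c differed by −0.83 in H1975 and by 2.00 in H1975–OR, a gap of 2.83 between the lines. In each H1975–OR condition the letter a library was the highest, and in H1975 it was the lowest. This difference between the lines was not tested, since H1975 holds 1 library of letter a.

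The ELF3 response to 1,25(OH)2D3 had opposite signs without and with osimertinib. In log2(CPM + 2) it was −0.68 without osimertinib, with Sample 3a left out, and 0.47 with it, a difference of 1.15. The test of that difference in edgeR gave an unadjusted p of 0.013 and an adjusted p of 1.0.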

How the results depend on the processing

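Under the alternatives planned, 493 values of single genes, lists, and levels were recomputed. Of these, 456 kept their side of the threshold or stayed within the set limits. A further 7 gained a call, 7 lost one, and 23 counts or levels moved. No effect called in either fit changed sign. Effects called in neither fit could change sign and still count as kept. For ESRP2 with osimertinib the log2 fold change lay between −1.35 and 2.06 over 13 fits. The alternatives comprised DESeq2 1.42.0, RLE factors, all genes without a filter, the replicate block, Sample 3a kept in, 14 libraries in 1 fit, the 11 H1975–OR libraries for 1,25(OH)2D3, the median transcript length, and each library left out. The 5 regulators called lower between the lines became between 3 and 6 on leaving out a library, with 3 of 6 tested without Sample 1c, where EHF was not tested and ELF3 was not called. For treatments, leaving out a library gave 0 to 0 calls. Both agents against vehicle gave 1 regulator, ELF3, with DESeq2 and 1 with the replicate block, against 0. By letter, the 1 regulator (ESRP2) became 0 without the osimertinib libraries and 0 without those given both agents.

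Calls over all genes moved more. For 1,25(OH)2D3 they numbered 19, with 124 by DESeq2 and 9 with the replicate block. For osimertinib they numbered 6, with 119 by DESeq2 and 35 with the block, for both agents against osimertinib 12, with 66 and 33, for both agents against vehicle 62, with 364 and 461 (25 with Sample 3a kept in), and for the difference of effects 0, with 11 and 0. Between the lines they numbered 2521, with 1636 with Sample 3a kept in. The block changed no other treatment call of a regulator, and between the lines it ended that of EHF (adjusted p = 0.053). The causes were not tested. Levels under 3 counts in a library limit what can be said of the regulators near 0.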
